A study of Homo sapiens with 9 samples.

Results

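The genes of the proteasome were followed across 9 Affymetrix human gene arrays of total RNA from Hep3B cells, an established human hepatocellular carcinoma line. Members were all probe sets assigned to 1 gene whose symbol is PSM followed by a letter from A to G and a number. This gave 51 probe sets of 45 genes, of 18417 genes measured in all. PSMC5, PSMD7 and PSMD13 had no such probe set in the annotation used and were not analysed here. The arrays formed 3 groups of 3: cells transfected with a YAP-specific siRNA, cells transfected with a nonsense siRNA, and untreated cells, the first and second taken 24 h after transfection with Oligofectamine. All 3 groups had first been grown in full medium for 24 h and carried no other agent per the labels. Titles of the samples start with HUH, but their cell line entry is Hep3B, and that name is used here. Each group is a single cell line, and the labels do not say that its 3 samples came from separate cultures, so every p-value measures the spread between these samples only.

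The proteasome is the protease that degrades proteins tagged with ubiquitin. Its core particle is a stack of rings of alpha (PSMA) and beta (PSMB) subunits, and some of the beta subunits carry the cutting sites. The regulatory particle that caps the core has a base, with a ring of ATPases (PSMC) that unfold substrates, and a lid that removes ubiquitin (both in part PSMD). Dedicated chaperones assist assembly: PSMG1 to PSMG4 act on the core, and PSMD5, PSMD9 and PSMD10 act on the base and are not subunits of the finished particle. PSME activators can cap the core instead, and PSMF1 encodes a protein first described as an inhibitor. PSMD10 encodes gankyrin, an ankyrin repeat protein known for its high level in hepatocellular carcinoma, which binds the ATPase encoded by PSMC4. When proteasome activity is short, the transcription factor NFE2L1 raises proteasome genes together through antioxidant response elements in their promoters.

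Values are log2 array signals as deposited, so a difference of 1 is a doubling. YAP1, the targeted gene, had signals of 7.54, 7.52 and 7.48 after YAP siRNA, 8.66, 8.75 and 8.68 after nonsense siRNA and 8.78, 8.62 and 8.69 in untreated cells. All 3 YAP siRNA arrays were below the 6 control arrays. Array medians differed by at most 0.0480. Of 8 hepatocyte markers measured all 8 were above the median signal over genes, 7.31, whereas 1 of 9 leukocyte markers (LYZ) and 0 of 4 endothelial markers were. Of 5 stromal markers COL1A1 and COL1A2 were above it. Of the proteasome genes 39 of 45 were above that median. The 6 below it were the immunoproteasome genes PSMB8, PSMB9 and PSMB10, the tissue-restricted core genes PSMA8 (testis) and PSMB11 (thymus), and PSMG4.

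The promoters of 3 genes are shown because PSMC4 and PSMD10 were the members that passed the test and PSMA3 varied most between arrays. Each window runs from 250 bases before to 50 bases after the RefSeq start (GRCh38.p14), at chr19:39970915-39971214 on the plus strand for PSMC4, chrX:108091493-108091792 on the minus strand for PSMD10 and chr14:58244593-58244892 on the plus strand for PSMA3. Capitals mark the core of an antioxidant response element (TGACNNNGC or TGAGNNNGC) or a CCAAT box (CCAAT), each searched on both strands.
PSMC4: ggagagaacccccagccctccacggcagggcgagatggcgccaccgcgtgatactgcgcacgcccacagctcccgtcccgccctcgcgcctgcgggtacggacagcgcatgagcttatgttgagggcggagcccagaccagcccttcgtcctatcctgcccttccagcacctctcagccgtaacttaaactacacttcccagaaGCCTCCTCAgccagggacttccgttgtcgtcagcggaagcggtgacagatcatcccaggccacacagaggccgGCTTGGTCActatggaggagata
PSMD10: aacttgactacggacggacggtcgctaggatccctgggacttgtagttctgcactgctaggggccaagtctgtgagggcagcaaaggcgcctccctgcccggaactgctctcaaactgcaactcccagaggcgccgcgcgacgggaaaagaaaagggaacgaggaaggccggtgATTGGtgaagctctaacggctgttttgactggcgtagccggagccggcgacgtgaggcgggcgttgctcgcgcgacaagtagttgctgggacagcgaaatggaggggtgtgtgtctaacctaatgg
PSMA3: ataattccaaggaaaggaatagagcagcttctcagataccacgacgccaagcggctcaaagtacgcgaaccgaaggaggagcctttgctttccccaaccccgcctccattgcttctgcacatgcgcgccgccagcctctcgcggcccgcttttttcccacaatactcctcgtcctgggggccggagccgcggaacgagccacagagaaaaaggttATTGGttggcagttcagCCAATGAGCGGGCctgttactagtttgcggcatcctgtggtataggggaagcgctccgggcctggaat
The PSMC4 window held 2 matches to the antioxidant response element core and no CCAAT box. The PSMD10 window held 1 CCAAT box and no match to that core. The PSMA3 window held 1 match to the core and 2 CCAAT boxes, of which 1 shares a base with the core match. None of the 3 held GGAATG, a motif of the TEAD factors through which YAP acts on DNA.

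Promoter windows were found for 39 of the 45 genes, 47 windows in all. PSMA7, PSMB1, PSMB6, PSMB7, PSMD4 and PSMG3 had none. The antioxidant response element core was in 21 of the 47 windows (44.7%), against 29.1% of all 35116 promoter windows. A CCAAT box was in 38.3% of the member windows, against 34.6% of all windows. GGAATG was in 12.8% of the member windows, those of PSMA4, PSMB5, PSMB8, PSMC6, PSME2 and PSME3, against 14% of all windows. A match is a run of letters and not a measured binding site.

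YAP siRNA against nonsense siRNA compared proteasome transcripts between cells that had both been transfected and that differed in YAP1. PSMD10 fell, and none of the other 44 genes passed the test in either direction. By limma over all genes 1 of 45 members was lower, where 2.61% of all genes were, and 0 were higher, where 1.92% of all genes were. At an unadjusted limma p under 0.05 there were 2 members higher and 4 lower, against 8.08% and 7.69% of all genes. The median difference over the members was -0.01 (0.03 with quantile normalization), and over all genes it was 0.01. The differences ran from -0.39 to 0.21. For 43 of 45 members (95.6%) the 95% interval lay within 0.5 of 0 on the log2 scale, as it did for 98.5% of all genes. The share of members called was not above that of all genes. Without nonsense siRNA replicate 2, 5 members were lower, where 4.43% of all genes were, and 0 were higher by limma, where 2.25% were. The YAP siRNA arrays lay wholly above the nonsense siRNA arrays for 5 members (11.5% of all genes), PSMB2, PSMB5, PSMC3, PSMC4 and PSMD4, and wholly below them for 3 (8.71% of all genes), PSMD10, PSMG1 and PSMG2.

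**Figure D1:**
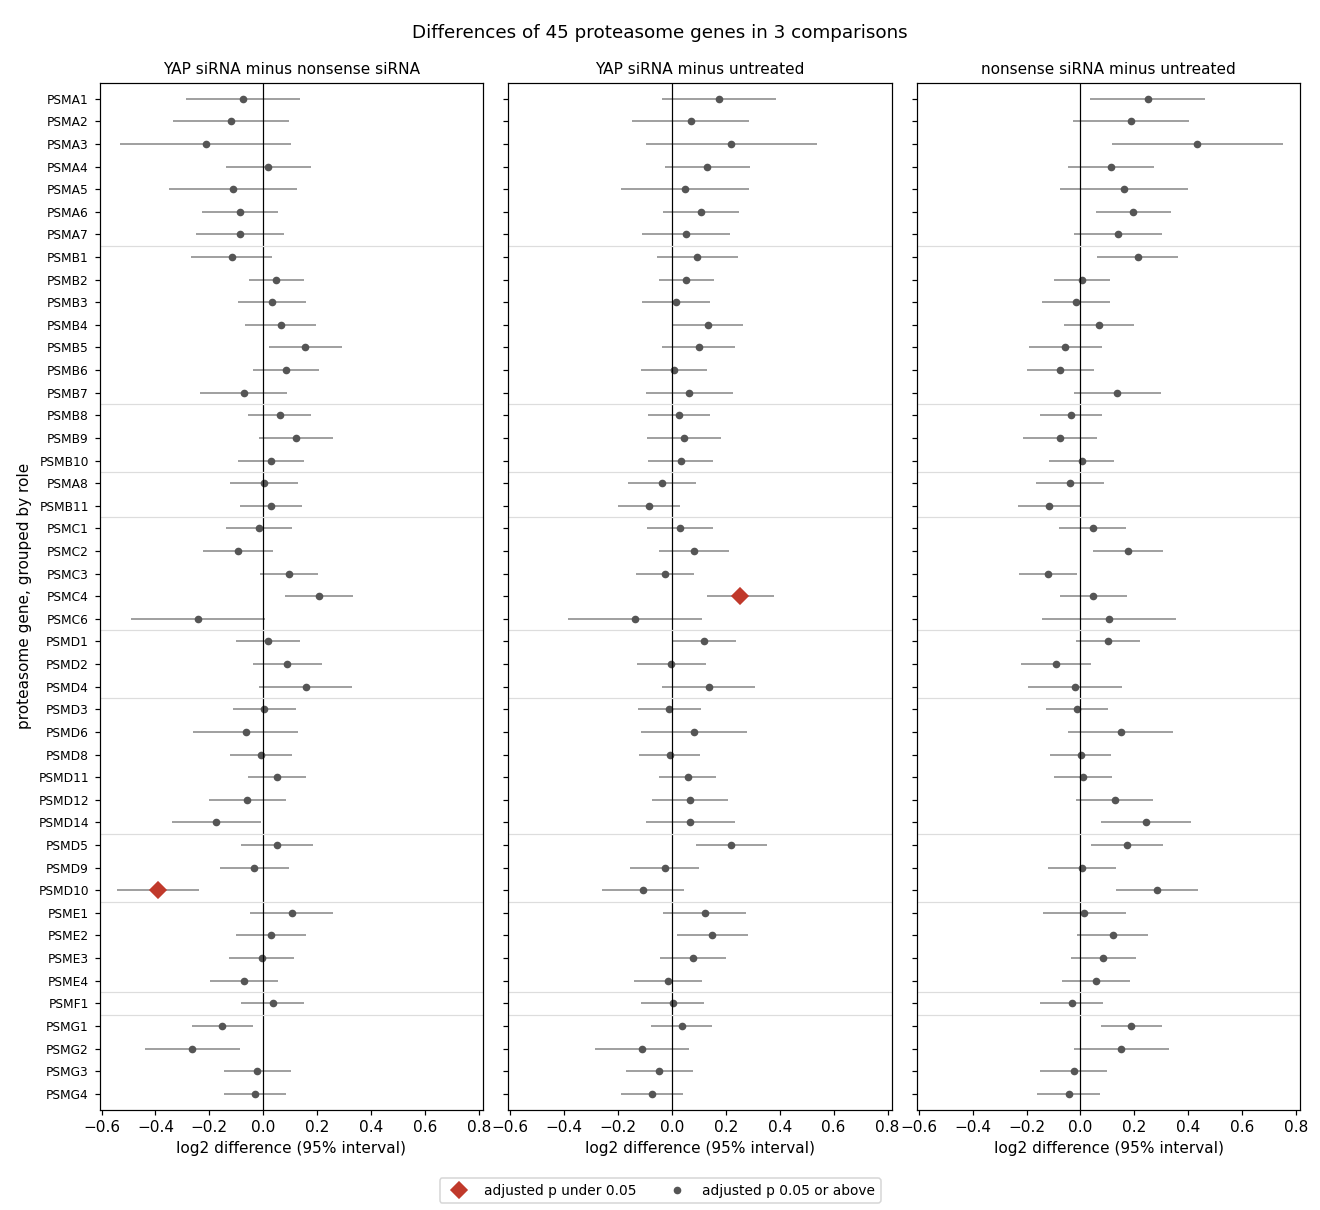
Log2 difference (x axis) with its 95% interval from limma for each of 45 proteasome genes (y axis, grouped by role), for YAP siRNA minus nonsense siRNA, YAP siRNA minus untreated and nonsense siRNA minus untreated. Diamonds mark an adjusted p under 0.05: PSMD10 in the left panel, at -0.39, and PSMC4 in the middle panel, at 0.25.

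PSMD10 had signals of 7.88, 7.90 and 7.82 after YAP siRNA, 8.27, 8.14 and 8.36 after nonsense siRNA and 7.82, 8.03 and 8.08 in untreated cells. The YAP siRNA and nonsense siRNA arrays did not overlap. Untreated replicate 1 was the lowest of all 9 arrays, at 7.816 against 7.823 on the lowest YAP siRNA array. PSMD10 fell by 0.39 against nonsense siRNA (SE 0.0715, 95% interval -0.54 to -0.24, limma adjusted p = 0.00425), which left 76.3% of the level after nonsense siRNA. Against untreated cells the difference was -0.11 (95% interval -0.26 to 0.04, limma adjusted p = 0.498), and nonsense siRNA differed from untreated cells by 0.28 (limma adjusted p = 0.0816). These comparisons share arrays, so the 3 differences are not independent. Set against all 6 control arrays, the YAP siRNA arrays gave an exact permutation p of 0.0833 (two-sided). This pools the nonsense siRNA arrays with the untreated arrays, which all lay below them for PSMD10. It therefore does not measure the difference from either control group alone. With the nonsense siRNA arrays alone the exact permutation p was 0.1, and 3 arrays against 3 cannot give less. PSMD10 was picked for these permutations because it had passed on the same arrays, and they are not adjusted for the number of genes. The call against nonsense siRNA held in 9 of 9 fits that left out 1 array (limma adjusted p from 0.00124 to 0.0266). Of these, the fits without an untreated array left the difference itself unchanged. The call was lost when all 33297 probe sets of the file were tested together (limma adjusted p = 0.0613).

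**Figure D2:**
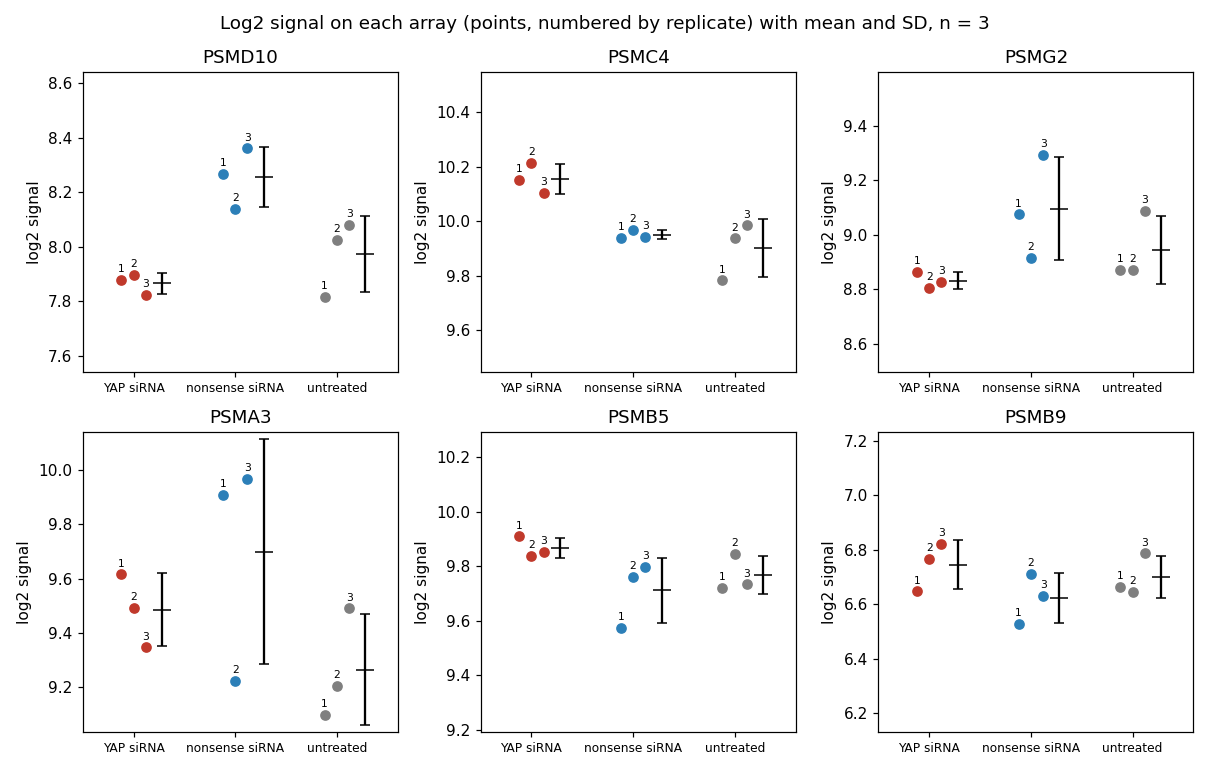
Log2 signal (y axis) on each array for PSMD10, PSMC4, PSMG2, PSMA3, PSMB5 and PSMB9, with YAP siRNA, nonsense siRNA and untreated arrays from left to right; points are arrays numbered by replicate, and bars are the mean with SD (n = 3). The PSMD10 mean is lowest after YAP siRNA and highest after nonsense siRNA, PSMC4 is above all 6 control arrays after YAP siRNA, and PSMA3 spans 9.22 to 9.97 within the nonsense siRNA group.

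PSMC4, an ATPase of the base and the partner of gankyrin, had signals of 10.15, 10.21 and 10.10 after YAP siRNA, 9.94, 9.97 and 9.94 after nonsense siRNA and 9.78, 9.94 and 9.98 in untreated cells. All 3 YAP siRNA arrays lay above all 6 control arrays. Against untreated cells PSMC4 rose by 0.25 (SE 0.0590, 95% interval 0.13 to 0.38, limma adjusted p = 0.0267), a level 1.19 times that of untreated cells. Against nonsense siRNA the difference was 0.21 (95% interval 0.08 to 0.33) and did not pass (limma adjusted p = 0.0619). It passed there without untreated replicate 1 (limma adjusted p = 0.0366) or with only the 6 arrays compared (0.0492). Against all 6 control arrays the exact permutation p was 0.0119 (two-sided), the lowest possible for 3 arrays against 6. PSMC4 was picked for this because it had passed on the same arrays. That p is not adjusted for the number of genes and is no separate support. Leaving out 1 array ended the call against untreated cells in 4 of 9 cases: without YAP siRNA replicate 1 (limma adjusted p = 0.0988) or 2 (0.151), and without untreated replicate 1 (0.134) or 2 (0.0632). Fits without a nonsense siRNA array left this difference itself unchanged. The call was also lost when all probe sets were tested together (limma adjusted p = 0.120).

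The other ATPase genes did not pass in any comparison. PSMC3 differed by 0.10 between YAP siRNA and nonsense siRNA, PSMC2 by -0.09 and PSMC1 by -0.02. PSMC6 differed by -0.24 (95% interval -0.49 to 0.01, limma adjusted p = 0.331), with a wide spread: its signals were 9.20, 9.02 and 9.12 after YAP siRNA, 9.36, 9.13 and 9.58 after nonsense siRNA and 9.01, 9.21 and 9.54 in untreated cells. A second, dimmer probe set of PSMC6 gave -0.24 in this comparison, 0.27 for nonsense siRNA against untreated cells, where the first gave 0.11, and 0.03 for YAP siRNA against untreated cells, where the first gave -0.14. The probe sets of PSMC6 thus differed in sign for YAP siRNA against untreated cells. PSMC1 also had a second probe set, at -0.06 for YAP siRNA against nonsense siRNA. Of the non-ATPase base subunits, the ubiquitin receptor gene PSMD4 differed by 0.16 (limma adjusted p = 0.381), and the scaffold genes PSMD1 and PSMD2 by 0.02 and 0.09.

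Among the core chaperones all 4 differences between YAP siRNA and nonsense siRNA were below 0, and none passed. PSMG2 had signals of 8.86, 8.81 and 8.83 after YAP siRNA, 9.08, 8.92 and 9.29 after nonsense siRNA and 8.87, 8.87 and 9.09 in untreated cells. It lay below both control groups on all 3 YAP siRNA arrays, with a difference from nonsense siRNA of -0.26 (95% interval -0.44 to -0.09, limma adjusted p = 0.0946). The gap to untreated cells was narrow, 8.864 on the highest YAP siRNA array against 8.871 on the lowest untreated array. That difference was -0.11 (95% interval -0.29 to 0.06, limma adjusted p = 0.550). Against nonsense siRNA PSMG2 passed with the replicate number as a block (limma adjusted p = 0.0458) and without nonsense siRNA replicate 2 (0.010). PSMG1, which pairs with PSMG2, had signals of 8.34, 8.29 and 8.27 after YAP siRNA, 8.48, 8.37 and 8.50 after nonsense siRNA and 8.23, 8.28 and 8.28 in untreated cells. The nonsense siRNA arrays were its highest 3, and YAP siRNA differed from them by -0.15 (limma adjusted p = 0.146). PSMG3 and PSMG4 differed by -0.02 and -0.03. The base chaperone genes PSMD5 and PSMD9 differed by 0.05 and -0.03, unlike PSMD10 at -0.39.

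The catalytic beta subunits did not pass in any comparison. PSMB5, which carries the chymotrypsin-like activity, had signals of 9.91, 9.84 and 9.85 after YAP siRNA, 9.57, 9.76 and 9.80 after nonsense siRNA and 9.72, 9.85 and 9.73 in untreated cells. Its YAP siRNA arrays were above the nonsense siRNA arrays, by 0.16 (95% interval 0.02 to 0.29, limma adjusted p = 0.228), and overlapped the untreated ones. PSMB6, the caspase-like subunit gene, differed by 0.08, and PSMB7, the trypsin-like one, by -0.07. The 7 beta ring genes, of which the other 4 encode subunits without a cutting site, ranged from -0.12 to 0.16. Interferon can replace the catalytic subunits by those of the immunoproteasome. PSMB9 had signals of 6.65, 6.77 and 6.82 after YAP siRNA, 6.53, 6.71 and 6.63 after nonsense siRNA and 6.67, 6.65 and 6.79 in untreated cells, and its groups overlapped (difference from nonsense siRNA 0.12, limma adjusted p = 0.398). PSMB8 differed by 0.06 and PSMB10 by 0.03, and all 3 genes were dim. PSMB8 and PSMB9 each had 3 probe sets, whose values differed by at most 0.000322 and 8.20e-05 on any array, so they count as 1 measurement each.

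In the lid, PSMD14, the deubiquitinase that cuts ubiquitin from substrates, had signals of 10.21, 10.17 and 10.10 after YAP siRNA, 10.33, 10.16 and 10.52 after nonsense siRNA and 9.99, 10.11 and 10.18 in untreated cells. The YAP siRNA arrays overlapped both control groups, and the difference from nonsense siRNA was -0.17 (95% interval -0.34 to -0.01, limma adjusted p = 0.285). The 6 lid genes measured ranged from -0.17 to 0.05. Of the activators, PSME1 and PSME2, which encode the interferon-inducible PA28 alpha and beta, differed by 0.11 and 0.03, the nuclear PSME3 by -0.01 and PSME4 by -0.07. PSMF1 differed by 0.04. None of them passed in any comparison.

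YAP siRNA against untreated cells set the same knockdown beside cells that were not transfected. PSMC4 was the 1 member of 45 that was higher, where 1.63% of all genes were, and 0 were lower by limma, where 1.46% of all genes were. At an unadjusted limma p under 0.05 there were 4 members higher (8.59% of all genes) and 0 lower (7.18% of all genes). The median difference was 0.05, against -0.01 over all genes. The YAP siRNA arrays lay wholly above the untreated arrays for 7 members (10.2% of all genes), PSMA4, PSMA6, PSMB2, PSMB4, PSMC4, PSMD5 and PSMD11, and wholly below them for 1, PSMG2 (10.3% of all genes). Leaving out 1 array at a time gave 0 to 2 higher members, PSMC4 and PSMD5 being those concerned. PSMD5, a base chaperone gene, had signals of 9.25, 9.25 and 9.12 after YAP siRNA, 9.09, 9.15 and 9.22 after nonsense siRNA and 9.10, 8.91 and 8.95 in untreated cells. The YAP siRNA and untreated arrays did not overlap. Their difference of 0.22 did not pass (95% interval 0.09 to 0.35, limma adjusted p = 0.0744), although it did without YAP siRNA replicate 3 (0.0415) or untreated replicate 1 (0.0431). Nonsense siRNA was also above untreated cells, by 0.17 (limma adjusted p = 0.168), and YAP siRNA differed from nonsense siRNA by 0.05. PSMB4 differed by 0.13 and PSME2 by 0.15, and neither passed (limma adjusted p = 0.303 and 0.249). Nonsense siRNA differed from untreated cells by 0.07 for PSMB4 and by 0.12 for PSME2.

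Nonsense siRNA against untreated cells compared transfected control cells with cells that were not transfected. None of the 45 members passed: 0 were higher and 0 lower by limma, where 0.337% of all genes were higher and 0.277% lower. At an unadjusted limma p under 0.05 there were 9 members higher, where 9.87% of all genes were, and 2 lower, where 9.66% of all genes were. The median difference was 0.06 (0.02 with quantile normalization), against -0.02 over all genes. The nonsense siRNA arrays lay wholly above the untreated arrays for 5 members (8.9% of all genes), PSMA6, PSMC2, PSMD1, PSMD10 and PSMG1, and wholly below them for 2 (13.8% of all genes), PSMB11 and PSMC3. The count rested on nonsense siRNA replicate 2: without it 9 members were higher (5.6% of all genes) and 0 lower by limma (2.38% of all genes). The 7 alpha ring genes all had differences above 0, from 0.11 for PSMA4 to 0.43 for PSMA3 (median 0.19). All 7 were also above 0 for YAP siRNA against untreated cells, from 0.05 to 0.22 (median 0.11). For YAP siRNA against nonsense siRNA 6 of the 7 were below 0 (median -0.09). The beta ring, built on the same plan, had a median of 0.01 for nonsense siRNA against untreated cells, with PSMB1 at 0.21. For YAP siRNA against untreated cells all 7 beta ring genes were above 0 (median 0.06).

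The alpha ring genes varied together between the nonsense siRNA arrays, and less so within the other groups. Among YAP siRNA arrays PSMA4 and PSMA6 were highest on replicate 2, where PSMA1 was lowest. Among untreated arrays PSMA5 and PSMA6 were lowest on replicate 3, where the other alpha ring genes were highest. PSMA3 had signals of 9.62, 9.49 and 9.35 after YAP siRNA, 9.91, 9.22 and 9.97 after nonsense siRNA and 9.10, 9.21 and 9.49 in untreated cells. Nonsense siRNA replicate 2 lay within the untreated range, far below the other arrays of its group. The same array was the lowest of its group in all 7 alpha ring genes, and replicate 3 was the highest in all 7. Averaged over the 7 genes, the deviation from each gene's mean was 0.06, 0.03 and -0.07 on YAP siRNA replicates 1 to 3, 0.15, -0.15 and 0.31 on the nonsense siRNA arrays and -0.19, -0.10 and -0.03 on the untreated arrays. All 3 YAP siRNA arrays were thus inside the range of the nonsense siRNA group. Over all genes the same means stayed between -0.01 and 0.02. The within-group SD of PSMA3, 0.277, exceeded that of 99.97% of genes, and the median SD of the alpha ring was 0.172, against 0.0772 in the beta ring and 0.0721 over all genes. The order of the nonsense siRNA arrays was not particular to the alpha ring. Replicate 2 was also lowest and replicate 3 highest in the mean of the lid genes (0.05, -0.05 and 0.12 on replicates 1 to 3), of the ATPase genes (0.01, -0.04 and 0.09), of the core chaperone genes (0.06, -0.00 and 0.13) and of the beta ring genes (-0.02, -0.06 and 0.09), with a narrower spread. The activator mean followed this order too (0.02, -0.01 and 0.04). It did not hold for the base non-ATPase (-0.01, 0.01 and -0.09), immunoproteasome (-0.09, 0.04 and -0.06) or base chaperone means (0.05, 0.06 and 0.16). Nor did it hold for the tissue-restricted genes or PSMF1. Outside the members the order was seen in B2M, the light chain gene of MHC class I. B2M is named here after its values were seen and had signals of 9.71, 9.27 and 9.91 on the nonsense siRNA arrays.

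**Figure D3:**
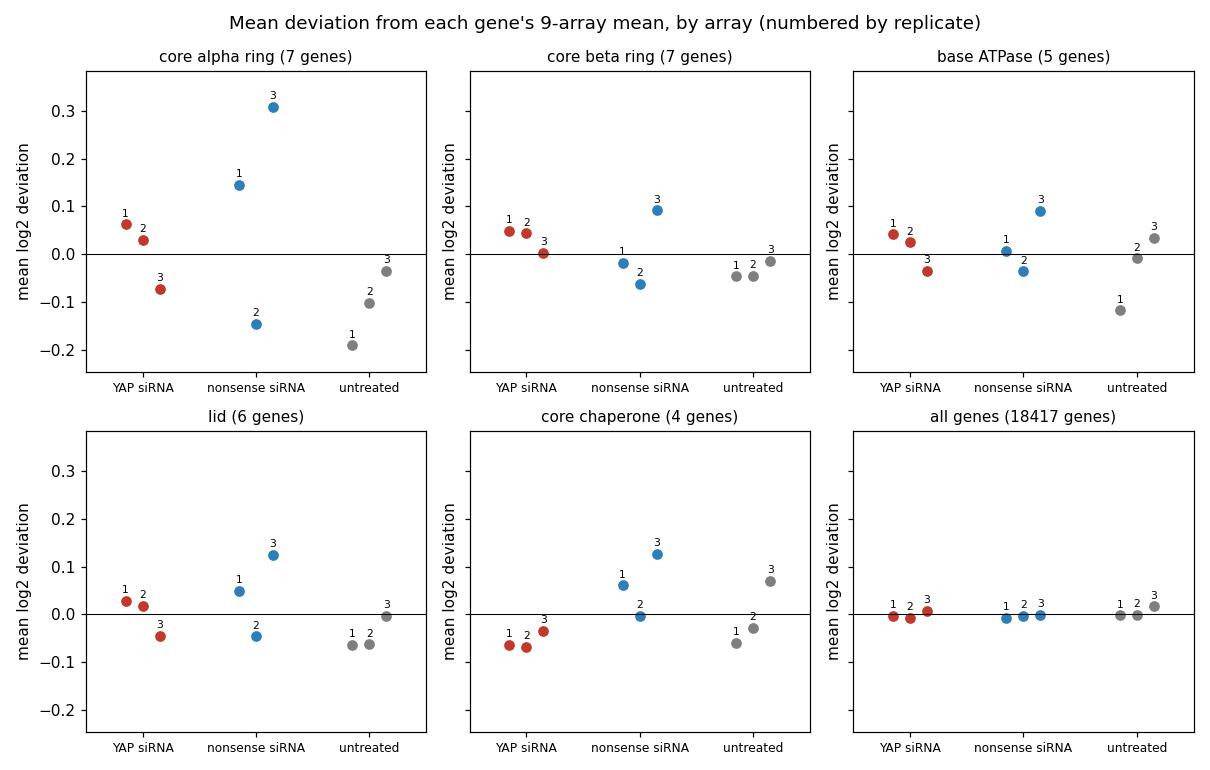
Mean log2 deviation from each gene's 9-array mean (y axis) on each array, numbered by replicate, for alpha ring, beta ring, ATPase, lid and core chaperone genes and for all genes, with YAP siRNA, nonsense siRNA and untreated arrays from left to right. In the alpha ring the 3 nonsense siRNA arrays spread from -0.15 to 0.31, while over all genes no array leaves the range from -0.01 to 0.02.

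Within-group deviations of the alpha ring genes correlated with a median Pearson's r of 0.77 over 21 gene pairs and 9 arrays. The lowest r of an alpha ring pair was 0.28. The median was 0.27 in the beta ring and 0.15 over all member pairs. All groups are pooled in r, and the alpha ring spread was widest among the nonsense siRNA arrays. These genes share arrays and labelled RNA, so r is a description. The first principal component held 65.0% of the members' within-group variance. Values were not scaled, so genes with a wide spread weigh most, and the share over all genes was not computed. Of the member pairs 60.8% had a positive correlation. The 9 members that passed as higher with nonsense siRNA against untreated cells once nonsense siRNA replicate 2 was left out (20% of members) were PSMA1, PSMA2, PSMA3, PSMA5, PSMB1, PSMC2, PSMD10, PSMD14 and PSMG1, with differences from 0.22 for PSMC2 to 0.67 for PSMA3 (limma adjusted p = 0.0470 and 0.00180). The 5 members then lower with YAP siRNA against nonsense siRNA (11.1% of members) were PSMA2, PSMA3, PSMD10, PSMD14 and PSMG2. Of these, PSMA3 differed by -0.45 without that array (limma adjusted p = 0.00832). With all 9 arrays PSMA3 differed by -0.21 in the same comparison, its groups overlapped and it did not pass (limma adjusted p = 0.577). Array weights in limma, an alternative chosen after seeing the data, gave nonsense siRNA replicate 2 a weight of 0.453 and YAP siRNA replicate 3 nearly the same, 0.462, the lowest of the 9 arrays. With them 9 members were higher (8.34% of all genes) and 0 lower by limma (5.89%) for nonsense siRNA against untreated cells. For YAP siRNA against nonsense siRNA, PSMB5 and PSMC4 were higher (6.22% of all genes) and PSMD10, PSMG1 and PSMG2 lower (6.83%). For YAP siRNA against untreated cells, PSMC4 and PSMD5 were higher (5.52%) and 0 members lower by limma (4.03%). What sets either array apart was not tested.

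**Figure D4:**
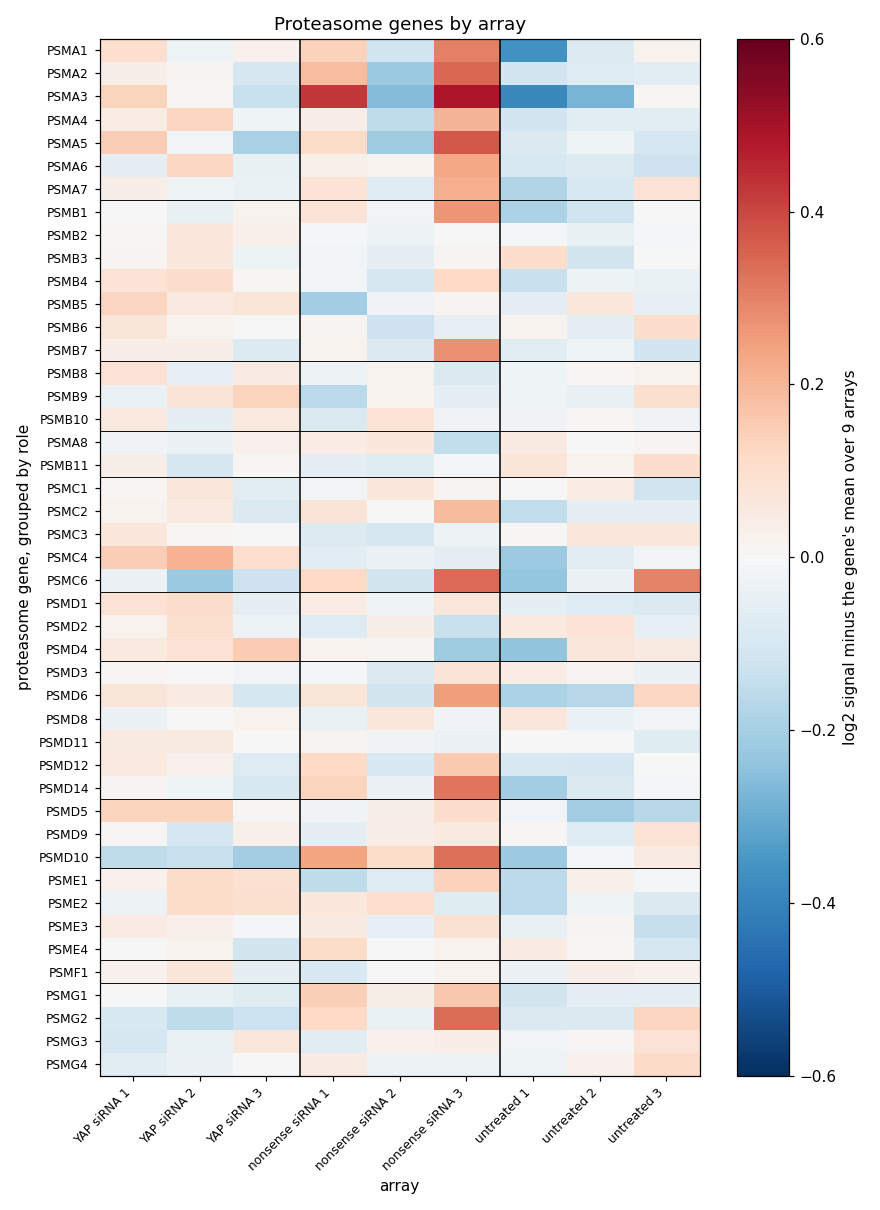
Log2 signal minus the gene's mean over 9 arrays (colour) for 45 proteasome genes (rows, grouped by role) on 9 arrays (columns: YAP siRNA, nonsense siRNA, untreated). The column of nonsense siRNA replicate 3 is the reddest among the alpha ring genes, and nonsense siRNA replicate 2 is blue there except for PSMA6. PSMD10 is blue on all 3 YAP siRNA arrays and on untreated replicate 1, its lowest array.

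Other genes of the pathway gave no call. Of 43 listed, 36 were measured, and 0 were higher or lower by limma in any of the 3 comparisons, where 0.277% to 2.61% of all genes were in each direction. At an unadjusted limma p under 0.05 there were 2 higher (8.08% of all genes) and 5 lower (7.69%) of the 36 for YAP siRNA against nonsense siRNA. For YAP siRNA against untreated cells there were 4 higher (8.59% of all genes) and 2 lower (7.18%), and for nonsense siRNA against untreated cells 4 higher (9.87%) and 3 lower (9.66%). NFE2L1, the transcription factor gene named above, had signals of 8.71, 8.78 and 8.87 after YAP siRNA, 8.65, 8.65 and 8.69 after nonsense siRNA and 8.81, 8.89 and 8.81 in untreated cells. It was lowest after nonsense siRNA, and YAP siRNA differed from nonsense siRNA by 0.12 (limma adjusted p = 0.296). POMP, a chaperone gene of core assembly, differed by -0.22, the small lid subunit gene SEM1 by -0.10 and the ubiquitin receptor gene ADRM1 by 0.05. The deubiquitinase genes USP14 and UCHL5 differed by -0.12 and 0.07. UBB, a polyubiquitin gene, differed by -0.07, and VCP, the unfoldase gene, by 0.03. In this comparison the shuttle factor gene RAD23B came nearest to the threshold, at -0.20 (limma adjusted p = 0.0820). Over all 3 comparisons it was ERAP1, which trims peptides for antigen presentation, at 0.26 for YAP siRNA against untreated cells (limma adjusted p = 0.0668).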

How the data were processed

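Per the labels' protocols, total RNA (Nucleospin) was turned into biotin-labelled cRNA following the manufacturer of the arrays. The authors deposited log2 signals for 33297 probe sets, a unit inferred from their range. How background, summarisation and normalization were handled is not given in the sources used here. No further scaling was applied. Symbols came from the supplied array annotation, in which 19460 probe sets had 1 gene, 1754 had several and 12083 were not listed. Each gene was represented by its single-gene probe set with the highest mean over 9 arrays.

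One limma model (version 3.58.1, R 4.3.3, lmFit and eBayes) with 3 group means took all 9 arrays and was tested two-sided, with Benjamini-Hochberg adjustment over 18417 genes and a threshold of 0.05. The fit was tested on simulated data. Figures used Python 3.11.15 and matplotlib 3.10.9.

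The members and lists were chosen with earlier results of these data known, so no list was tested. Genes were named when they passed, when they had the largest difference of their class, or as core roles (catalytic, ATPase, activator, chaperone); others were named after their values were seen. Same-numbered arrays were not treated as paired. The correlation of their within-group deviations over all genes ran from -0.34 to 0.34, which does not settle whether they were handled together. The number of arrays limits the precision.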

Additional observations from a re-analysis of the deposited data

How the results depend on the processing

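Over 15 alternatives the median difference over the members ranged from -0.02 to 0.03, with both signs, for YAP siRNA against nonsense siRNA and from 0.04 to 0.08 for YAP siRNA against untreated cells. For nonsense siRNA against untreated cells it ranged from 0.02 with quantile normalization to 0.10 over genes above the 50th percentile of signal. Counts of members passing by limma changed as follows. For YAP siRNA against nonsense siRNA, 0 higher became 1 with quantile normalization, with genes above the 50th percentile of signal, with an adjusted p under 0.1 and with only the 6 arrays compared, in each case PSMC4, and 2 with array weights. The 1 lower became 0 with all probe sets of the file tested, 2 with an adjusted p under 0.1, 2 with the replicate block and 3 with array weights. For YAP siRNA against untreated cells, 1 higher became 0 with all probe sets tested and at an adjusted p under 0.01, 2 at an adjusted p under 0.1 and 2 with array weights. For nonsense siRNA against untreated cells, 0 higher became 1 at an adjusted p under 0.1 (PSMD10) and 9 with array weights. With 1 array left out, the counts for YAP siRNA against nonsense siRNA ranged from 0 to 1 higher and from 1 to 5 lower, for YAP siRNA against untreated cells from 0 to 2 higher, and for nonsense siRNA against untreated cells from 0 to 9 higher. The count of lower members stayed at 0 against untreated cells in both comparisons under all 23 alternatives. No named gene that passed changed direction. The arrays were not treated as paired by replicate number, and the replicate block changed the call of PSMG2 among the named genes. The cause of these changes was not tested, other than the smaller or larger number of features tested and the threshold itself.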
